A study of Drosophila melanogaster with 19 samples.

Results

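The comparison described here is that of *chiffon* null embryos with wild-type (WT) embryos, and its members, chosen by the genotype in the sample labels, are 8 of the 19 RNA-seq libraries of the series, 4 null and 4 WT. All libraries were made from *Drosophila melanogaster* embryos of stages 12 to 14, with 6 embryos pooled in each. Null embryos carried 2 different null alleles of *chiffon*, *chiffon*ETBE3 and *chiffon*DsRed, on chromosomes that also bore Actin-Gal4 or UAS-10XGFP, and WT embryos were the parental act-Gal4 x GFP cross with intact *chiffon*. Both groups therefore expressed GFP from a ubiquitous Actin driver, and GFP-positive embryos were picked by hand under a fluorescence microscope. The other 11 libraries carried a *chiffon* transgene under its own regulatory sequences in the same null background: full-length Chiffon (FL, n = 3), FLWF24 with an early stop codon (n = 4) and ΔN without the N-terminal region (n = 4). They entered the same fit as the null and WT libraries, and so the filter, scaling, factor and spread behind each call. Otherwise they are used here only to place the level of a gene that differs between null and WT. Null embryos lack the zygotic gene, and *chiffon* product laid into the egg by the mother was not measured apart. The study's methods call the 4 replicates biological. The genetic background of the null chromosomes cannot be told apart from the loss of *chiffon* in a comparison of null with WT alone.

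*chiffon* encodes 2 separate proteins. Chiffon-A activates the kinase Cdc7 in the DDK complex, which fires replication origins, and Chiffon-B holds the acetyltransferase Gcn5 in the CHAT complex, which acetylates histone H3. Histone acetylation at promoters accompanies active transcription, and embryos of the stages used here are retracting the germ band, closing the dorsal side and starting to differentiate muscle, nerve and cuticle.

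Gene counts ran from 6282271 in null replicate 1 to 21621677 in null replicate 3, and from 8710630 to 13692823 in WT. Replicates were correlated at 0.818 to 0.933 within null and 0.878 to 0.944 within WT over log2 CPM of all tested genes, while pairs of 1 null and 1 WT library spanned 0.720 to 0.952. Levels are given as CPM, the usual edgeR unit of counts relative to the TMM-scaled library total, and are not corrected for gene length, so they are compared between libraries and not between genes. Markers of neurons, glia, muscle, epidermis, hemocytes, trachea, salivary gland and germ cells were detected in all 8 libraries. Of the fat body markers, *apolpp* was at 2225 to 7984 CPM and the larval gene *Lsp2* at 0 to 4.31 CPM. A lower level in whole embryos can come from fewer cells of a type or from less RNA per cell, which cannot be told apart here.

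The *chiffon* transcript itself was measured first, as a check of the genotype. *chif* (FBgn0000307, 2L:16342430-16352628, minus strand, BDGP6) stood at 22.3, 30.98, 25.3 and 37.96 CPM in null replicates 1 to 4 and at 213, 269.8, 260.0 and 262 CPM in the WT replicates. Every null library was below every WT library, and the 11 transgene libraries had 221 to 549 CPM with a median of 249. Mean levels were 29.1 ± 6.90 CPM for null and 251 ± 25.8 CPM for WT (SD, n = 4 each), and the fitted difference was -3.07 (SE 0.24, adjusted p 6.0e-08) as a log2 fold change. The remaining reads in null were not assigned to an allele, and 19.5% of the exon bases of the gene are annotated as shared with *Hyls1*.

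Across the transcriptome, 76 of 11978 tested genes passed an adjusted p under 0.05 with a log2 fold change of at least 0.5 in either direction, 28 higher and 48 lower in null (0.634% of those tested, 0.234% higher and 0.401% lower). These tests are edgeR quasi-likelihood F-tests with Benjamini-Hochberg adjustment over all tested genes, with 1 factor of unwanted variation in the model, and every adjusted p below is from that fit. A fitted fold change can be smaller or larger than the ratio of the plain means, because the factor is fitted beside the genotype. The factor was 0.679, 0.256, 0.00124 and 0.493 in null replicates 1 to 4 and -0.338, 0.346, 0.0622 and 0.0756 in the WT replicates. Within null and within WT, it ranked the libraries in the same order as the stage score described below. Without adjustment, 1381 genes (11.5%) had a p under 0.05. The CPM of null and WT did not overlap for 806 genes with null above (6.73%) and 496 with null below (4.14%). Among the called genes, 24 of the 28 higher and 46 of the 48 lower did not overlap, and the median log2 fold change was 1.45 for the higher and -1.52 for the lower. By annotated type, 26 of the higher and 41 of the lower genes were protein coding, 1 and 5 were other non-coding RNAs, 0 and 2 were snRNAs of 23 tested, and 1 higher gene had no match in the annotation. The balance of directions turned with the fit: 102 genes were higher and 74 lower without the factor, 192 higher and 149 lower with DESeq2, and 38 higher and 26 lower with null and WT libraries alone and no factor. Leaving out 1 library at a time gave from 37 calls without WT replicate 3 to 277 without null replicate 3, and null and WT libraries alone with 1 factor gave 25. *chif* was among the 7 of 36 named genes called under all 33 alternatives.

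**Figure D1:**
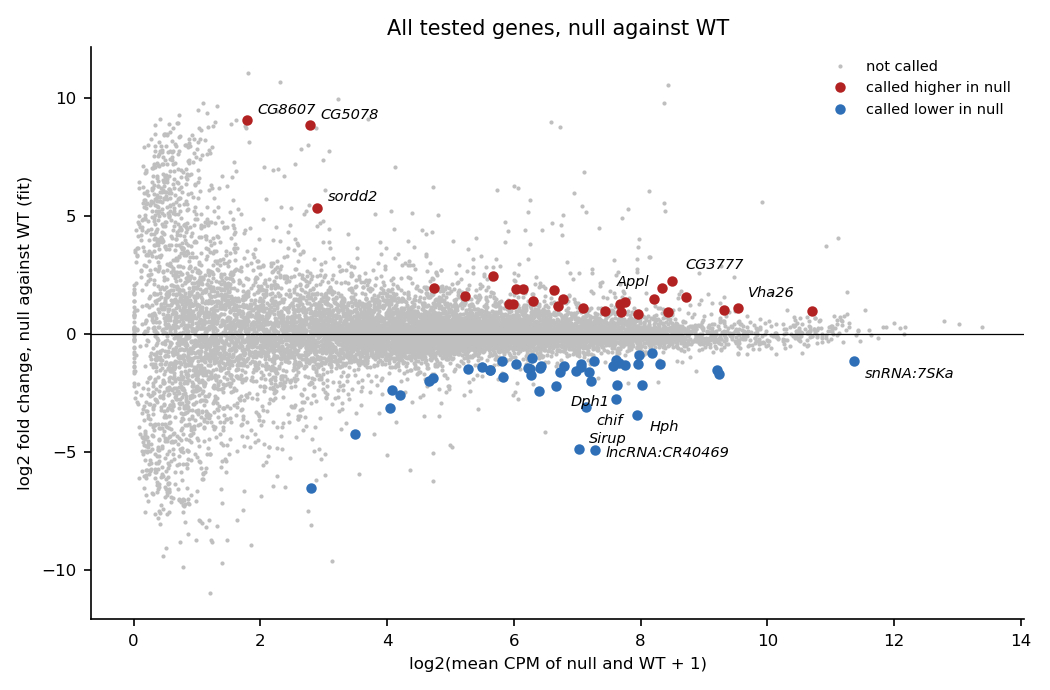
Each point is 1 of the 11978 tested genes, with the log2 of the mean CPM plus 1 of the 8 libraries on the x axis and the fitted log2 fold change of null against WT on the y axis. The 28 genes called higher are red, the 48 called lower are blue, and the widest grey spread lies at low CPM.

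The genes called lower included an X-linked non-coding RNA, which had the smallest adjusted p beside *chif*. *lncRNA:CR40469* (FBgn0058469, X:122493-122706, plus strand) had 10.01, 6.40, 7.38 and 7.89 CPM in null and 463, 144, 309.5 and 289.9 CPM in WT. Its fitted log2 fold change was -4.91 (SE 0.36, adjusted p 6.0e-08), and the transgene libraries held 102 to 497 CPM with a median of 387, so the null libraries stood alone at the low end. *CG42831*, on 3L, was at 2.08, 0.368, 1.59 and 0 CPM in null and 23.8, 12.9, 20.2 and 21.3 in WT (log2 fold change -4.22, SE 0.73, adjusted p 0.00447). The transgene libraries were at 17.5 to 46.3 CPM with a median of 24.7, again above every null library.

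Further genes called lower were *Dph1*, *Hph*, *Sirup* and *Fpps*. *Dph1*, which encodes an enzyme of diphthamide synthesis on translation elongation factor 2, had 58.8, 44.8, 57.4 and 85.5 CPM in null against 309, 335, 355 and 316 in WT (log2 fold change -2.75, SE 0.35, adjusted p 3.7e-04). *Hph*, the prolyl hydroxylase that marks the hypoxia factor Sima for degradation in normal oxygen, had 55.7, 38.7, 65.6 and 56.7 CPM against 411, 388, 500.1 and 450.3 (log2 fold change -3.40, SE 0.48, adjusted p 0.00316). Neither gene overlapped between the groups. The transgene libraries ran 53.9 to 278 CPM with a median of 206 for *Dph1* and 60.3 to 357 CPM with a median of 159.6 for *Hph*, in both from within or near the null range to below every WT library. *Sirup*, named for its rise on starvation, was at 31.9, 10.4, 10.95 and 20.4 CPM in null and 134, 252, 283 and 289 in WT (log2 fold change -4.86, SE 0.78, adjusted p 0.00883). Its transgene libraries, at 12.1 to 224 CPM with a median of 44.3, reached from the null range into the WT range. *Fpps*, farnesyl pyrophosphate synthase of the isoprenoid pathway, had 46.1, 72.6, 125 and 52.01 CPM in null and 235, 286, 435 and 325 in WT (log2 fold change -2.16, SE 0.37, adjusted p 0.00883).

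The genes *CG9698*, *CG7763* and *CG5171*, named here only by identifier, passed under every alternative, as *Dph1* and *lncRNA:CR40469* did. *CG9698* was at 5.29, 4.05, 5.40 and 9.15 CPM in null and 18.9, 38.2, 31.8 and 26.7 in WT (log2 fold change -2.55, SE 0.37, adjusted p 6.8e-04), with no overlap and the transgene libraries at 15.4 to 33.8 CPM with a median of 23.4. *CG7763* had 11.1, 21.7, 34.1 and 24.7 CPM against 172, 132, 136 and 132 (log2 fold change -2.42, SE 0.25, adjusted p 6.3e-06). In *CG5171* the null libraries held 86.2, 117, 81.02 and 110.3 CPM and the WT libraries 392, 395, 498 and 388 (log2 fold change -2.14, SE 0.29, adjusted p 3.7e-04), and the group levels did not meet.

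Non-coding and histone genes were also on the lower side, with uncertain counting. *snRNA:U12*, a small RNA of the minor spliceosome, had 0.567, 2.13, 4.16 and 4.66 CPM in null and 29.7, 35.7, 15.2 and 31.6 in WT (log2 fold change -3.12, SE 0.63, adjusted p 0.0161). *lncRNA:CR45593* was at 0, 0, 0 and 0.474 CPM in null and 13.1, 9.71, 21.4 and 3.15 in WT (log2 fold change -6.52, SE 1.25, adjusted p 0.0105), with 3 null libraries at 0. Every null library was below every WT library in both. *His2B:CG33868*, 1 of the near-identical copies of histone H2B in the histone repeat, was at 30.6, 37.5, 43.3 and 96.2 CPM in null and 369, 193, 199.5 and 219.6 in WT (log2 fold change -1.996, SE 0.36, adjusted p 0.00883), and reads of such copies cannot be assigned with certainty. *hpRNA:CR46342* had 13.6, 14.9, 7.83 and 11.05 CPM against 42.1, 43.3, 31.9 and 30.4 (log2 fold change -1.97, SE 0.43, adjusted p 0.027), and 22.8% of its exon bases are shared with *CG44774*. The FL libraries of *hpRNA:CR46342* were at 12.2, 7.57 and 11.1 CPM, and the log2 fold change of null against FL was -0.36, adjusted p 0.884. The scaffold gene of phototransduction, *inaD*, was also called, at 11.3, 6.48, 3.87 and 5.998 CPM in null and 22.8, 36.4, 23.6 and 16.6 in WT (log2 fold change -2.36, SE 0.53, adjusted p 0.0314). Its transgene libraries held 2.24 to 41.3 CPM with a median of 15.1, the 3 FL libraries were at 2.24, 3.50 and 8.14 CPM, and the log2 fold change of null against FL was -0.33, adjusted p 0.917. The call of *inaD* held under 21 of 33 alternatives and was lost, among others, without the RUV factor, with null and WT libraries alone and with the stage score described below as covariate.

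**Figure D2:**
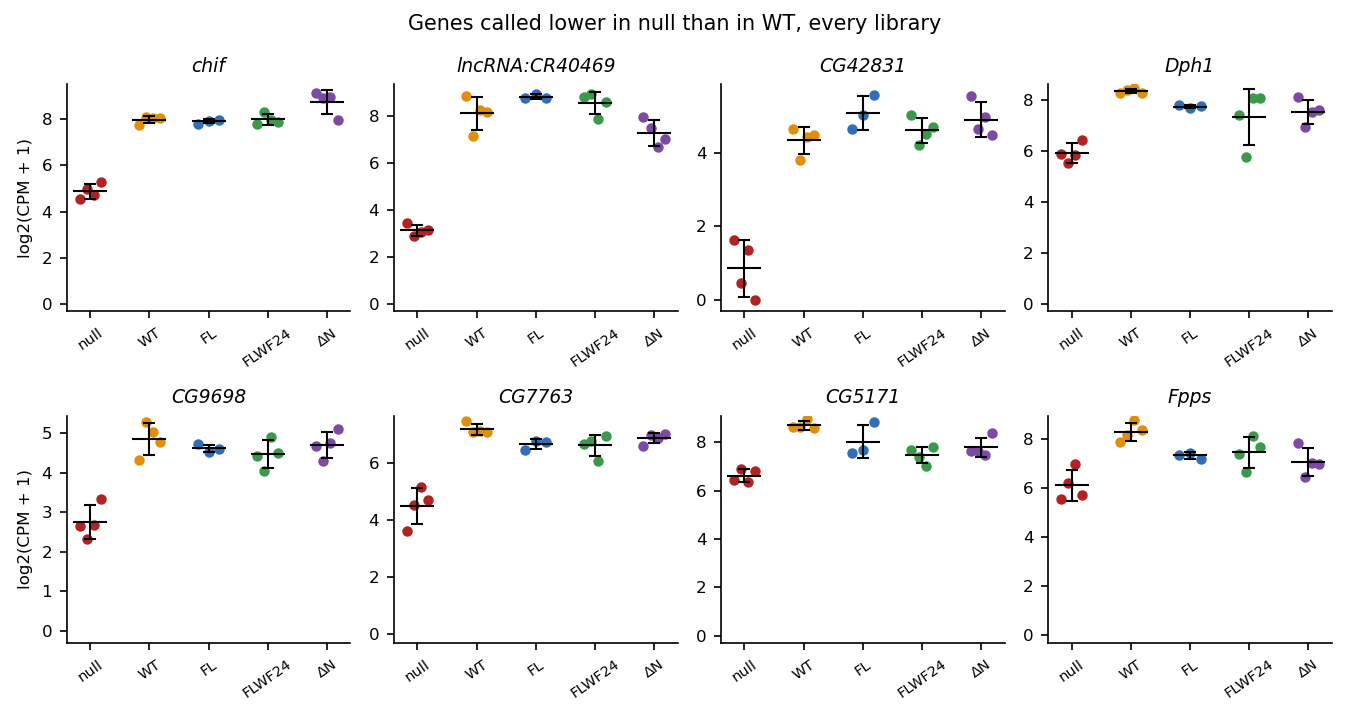
Level of 8 genes called lower in null, as log2(CPM + 1) on the y axis, in each library of null, WT, FL, FLWF24 and ΔN. Bars mark the mean and SD of the group. In *chif*, *lncRNA:CR40469* and *CG42831* every transgene library lies above every null library, while in *Fpps* the transgene libraries, at 85.7 to 279 CPM, span the gap between null and WT.

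Genes called higher in null were led by low-abundance genes that were almost absent from WT. *CG8607* had 14, 27, 248 and 36 counts in null replicates 1 to 4, or 2.65, 1.99, 12.3 and 2.84 CPM, and 0 counts in every WT library. Against a floor of 3 counts per WT library, null was at least 19.2-fold higher, and at least 9.67-fold without null replicate 3, which held most of the counts. *CG5078* had 40, 72, 640 and 34 counts in null and 0, 0, 1 and 0 in WT, a ratio of 727 with a 95% counting interval of 130.1 to 28750. Without null replicate 3 the ratio was 221 (39.1 to 8805). These intervals cover counting error only. The transgene libraries of *CG5078* were at 0.227 to 13.1 CPM with a median of 4.48, and those of *CG8607* at 0 to 17.2 CPM with a median of 6.48. The log2 fold change of null against FL was 2.45 for *CG5078* (adjusted p 0.544) and -0.70 for *CG8607* (adjusted p 0.938). The call of *CG8607* was lost when any 1 of the WT libraries was left out.

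In *CG42324*, *CG9344* and *Prx6c* the WT libraries stood below every library with the null chromosomes, with or without a transgene. *Prx6c* encodes a peroxiredoxin, an enzyme that reduces hydrogen peroxide, and had 134, 212, 135 and 114 CPM in null against 61.2, 37.1, 58.2 and 34.2 in WT (log2 fold change 1.87, SE 0.29, adjusted p 0.00123). Its transgene libraries were at 82.4 to 223 CPM with a median of 164, above every WT library, and the log2 fold change of null against FL was -0.11, adjusted p 0.963. *CG9344* was at 28.2, 34.5, 54.1 and 40.4 CPM in null and 15.1, 11.9, 8.87 and 12.5 in WT (log2 fold change 1.96, SE 0.26, adjusted p 3.5e-04). With transgenes it was at 29.6 to 64.9 CPM with a median of 43.5, and FL exceeded WT for it (1.95, adjusted p 0.00216), as it did for *Prx6c* (1.97, adjusted p 0.00237). *CG42324* had 57.8, 118, 64.4 and 89.9 CPM in null and 28.9, 17.9, 7.01 and 15.6 in WT (log2 fold change 2.48, SE 0.38, adjusted p 0.00111), and *sordd2* had 14.7, 12.6, 11.3 and 11.4 CPM against 0.545, 0.447, 0.0806 and 0.587 (log2 fold change 5.37, SE 1.16, adjusted p 0.0257). The transgene libraries, at 33.2 to 73.2 CPM with a median of 54.4 for *CG42324*, exceeded every WT library, while those of *sordd2* ran 0.128 to 17.01 CPM with a median of 10.1 and reached the WT level in ΔN only. Over all called genes, the mean of the 11 transgene libraries was nearer to WT than to null in 52 of 76 (68.4%), beside 73.1% of all tested genes.

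A second set of higher genes had transgene levels near WT. *Appl*, the homologue of the amyloid precursor protein and a membrane protein of neurons, was at 388, 581, 363 and 460.2 CPM in null and 98.8, 141, 139 and 199 in WT (log2 fold change 1.51, SE 0.32, adjusted p 0.0273). Its transgene libraries held 71.1 to 254 CPM with a median of 186, all below every null library. *emp*, a CD36-family scavenger receptor, had 135, 151, 134 and 229 CPM in null and 32.1, 49.3, 69.7 and 63.5 in WT (log2 fold change 1.49, SE 0.35, adjusted p 0.0475). *CG31522* was at 473, 588, 332 and 1198 CPM against 189, 178, 148 and 256 (log2 fold change 1.56, SE 0.32, adjusted p 0.0225), and *CG3777* at 413, 507, 263 and 1323 CPM against 59.9, 106, 87.6 and 135 (log2 fold change 2.24, SE 0.43, adjusted p 0.0194). In the last 3 genes null replicate 4 was the highest of the null libraries, and none of the 4 genes overlapped with WT. *emp* was called under 15 of 33 alternatives, the fewest with *na* of the named genes. All 4 genes lost their call with the stage score described below as covariate, with and without the factor. The transgene libraries also differed from null in that score, and its part in their levels was not tested.

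The remaining named genes of this direction were a mixed set. *CG31808* had 439.7, 605, 361 and 616 CPM in null and 172, 90.8, 121 and 179 in WT (log2 fold change 1.98, SE 0.38, adjusted p 0.0148). *toy*, a Pax6 factor of eye and head development, was at 82.8, 87.4, 95.9 and 61.1 CPM against 43.96, 26.9, 38.2 and 41.9 (log2 fold change 1.30, SE 0.28, adjusted p 0.0253), with transgene libraries at 27.8 to 95.2 CPM with a median of 64.2. *na*, a subunit of the sodium leak channel, had 82.2, 111, 65.4 and 91.7 CPM in null and 30.6, 49.6, 33.5 and 34.03 in WT (log2 fold change 1.30, SE 0.30, adjusted p 0.0379), and the groups did not overlap in any of these. *CG9436* had 152, 63.2, 75.96 and 134 CPM against 19.7, 25.1, 29.02 and 19.4 (log2 fold change 1.93, SE 0.42, adjusted p 0.0276), and *CG5191* had 81.2, 116, 134 and 113 against 52.5, 34.7, 40.9 and 52.7 (log2 fold change 1.40, SE 0.28, adjusted p 0.0147). *Mcad*, medium-chain acyl-CoA dehydrogenase, had 118, 114, 74.6 and 132 CPM in null and 39.6, 20.1, 26.7 and 33.4 in WT (log2 fold change 1.92, SE 0.28, adjusted p 8.6e-04), and 92.6% of its exon bases are shared with *CG7457*, so its reads are uncertain.

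**Figure D3:**
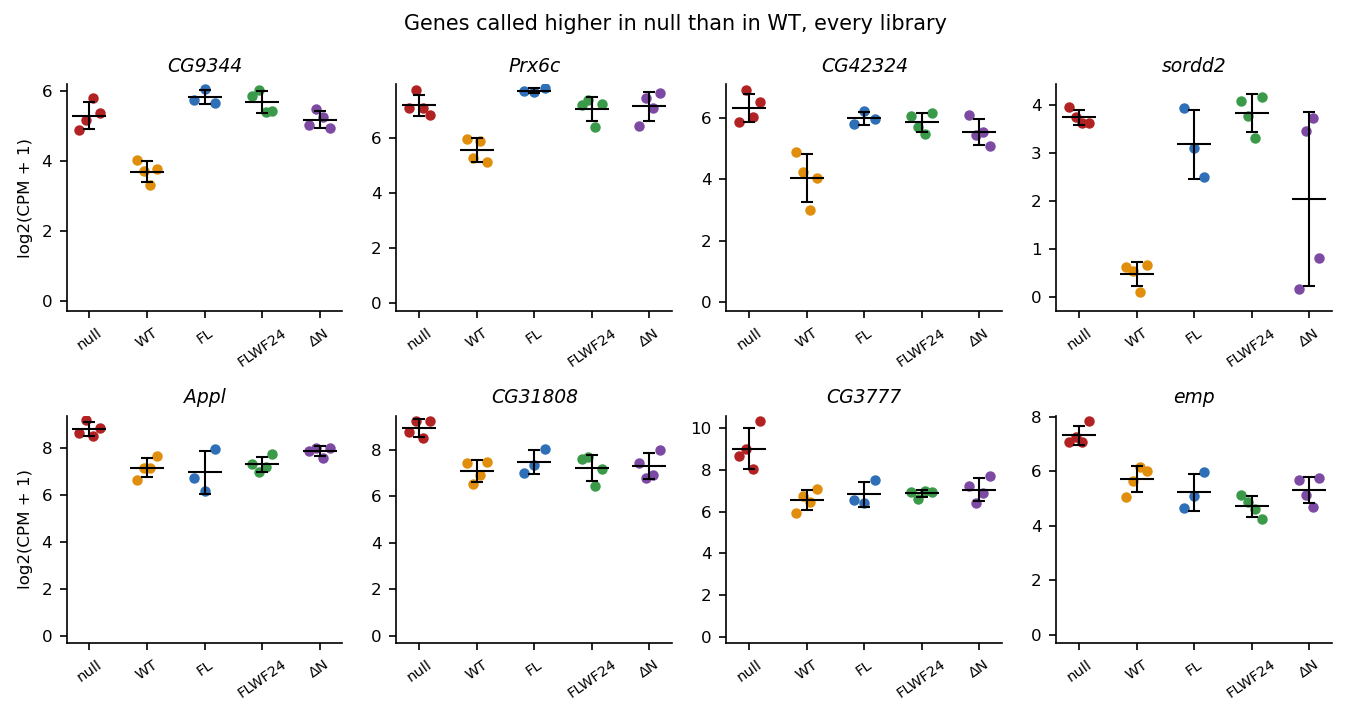
Level of 8 genes called higher in null, as log2(CPM + 1) on the y axis, in each library of null, WT, FL, FLWF24 and ΔN, with the mean and SD of the group. In *CG9344*, *Prx6c* and *CG42324* every library with the null chromosomes is above WT, while in *Appl* the transgene libraries are below null.

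Genes were then grouped by function, with members not picked for their values here but with earlier results of these data known. Among 30 genes of histone acetyltransferase complexes and DDK, *chif* was the only one called, the median log2 fold change was -0.24 and 23 members were negative. Over all tested genes the median was 0.03, 5750 of 11978 were negative and 0.634% were called. *Gcn5*, the catalytic subunit of CHAT and SAGA, was at 41.4, 56.1, 52.2 and 29.4 CPM in null and 56.1, 61.8, 48.4 and 48.8 in WT (log2 fold change -0.19, SE 0.27, adjusted p 0.871). *nej*, the CBP acetyltransferase, was at 522, 742, 908 and 553 CPM against 602, 819, 597 and 763 (log2 fold change -0.01, SE 0.22, adjusted p 0.997), and both ranges overlapped. *Nipped-A*, a scaffold of SAGA and Tip60, had 165, 285, 206 and 173 CPM in null and 323, 266, 322 and 297 in WT (log2 fold change -0.55, SE 0.22, adjusted p 0.315).

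The neural lists are read beside the 0.634% of all tested genes that were called. None of 27 synaptic vesicle and active zone genes was called, yet 23 were positive with a median log2 fold change of 0.84 and 13 did not overlap, all with null above, which 6.73% of all tested genes did. *Sap47* (log2 fold change 0.33, adjusted p 0.659) and *unc-13* (log2 fold change 0.40, adjusted p 0.77), named for their high mean level, were not called. *Rab3*, a GTPase of synaptic vesicles, had 284, 162, 78.1 and 174 CPM in null and 29.9, 64.5, 54.4 and 49.1 in WT (log2 fold change 1.31, SE 0.34, adjusted p 0.0769). *cpx*, complexin, which clamps vesicle fusion, had 345, 314, 131 and 349.8 CPM against 45.8, 122, 76.7 and 101 (log2 fold change 1.02, SE 0.31, adjusted p 0.167). The groups did not overlap in either gene, and neither passed the test. In the list of 28 genes of transmitter synthesis, transport and receptors, 0 were called, 25 were positive, the median was 0.93 and 9 did not overlap, again with null above (6.73% of all tested genes). *VAChT* (log2 fold change 0.92, adjusted p 0.423) and *VGlut* (log2 fold change 0.93, adjusted p 0.843), named for their high mean level, were not called. Of 26 genes of postmitotic neurons *Appl* alone was called, while 24 neuroblast and neural progenitor genes had 0 calls, 21 negative members and a median of -0.43. *sli* (log2 fold change -0.28, adjusted p 0.659), *Ank2* (log2 fold change 0.14, adjusted p 0.923), *brat* (log2 fold change -0.24, adjusted p 0.742) and *grh* (log2 fold change -0.43, adjusted p 0.488), named for their high mean level, were not called. The pan-neuronal RNA-binding protein gene *elav* was at 209, 539, 618 and 358 CPM in null and 592, 604, 579 and 614 in WT (log2 fold change -0.34, adjusted p 0.583), and the neural progenitor gene *mira* at 66.1, 136, 334 and 118 CPM in null and 452, 363, 296 and 283 in WT (log2 fold change -0.90, SE 0.32, adjusted p 0.285).

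Structural genes of muscle and cuticle had positive medians and no calls. Over all tested genes 0.634% were called, and 0 calls in lists of this size is near that share. None of 26 sarcomere and muscle contraction genes was called, with 24 positive and a median log2 fold change of 0.65. Of these genes 5 did not overlap, all with null above (6.73% of all tested genes). *Act57B*, a muscle actin, had 4958, 3623, 2871 and 6226 CPM in null and 1001, 2354, 1338 and 1385 in WT (log2 fold change 1.02, SE 0.24, adjusted p 0.0502). Of 96 structural cuticle genes 72 passed the filter on low counts and 0 were called, with a median of 0.45 and 16 without overlap, all with null above (6.73% of all tested genes). Of 23 Osiris family genes, which are expressed in cuticle-forming epithelia, 16 passed the filter, 0 were called and the median was 5.12, or 4.18 with the 2 genes at the floor in 1 group set at their bound. A gene that passed the filter only through its higher group had to differ, so these medians are no evidence on the families as wholes. *up* (log2 fold change 0.80, adjusted p 0.776), *TwdlN* (log2 fold change -0.76, adjusted p 0.847), *TwdlM* (log2 fold change 0.005, adjusted p 1) and *Osi6* (log2 fold change 3.76, adjusted p 0.571), named for their high mean level, were not called. *Osi7*, the member with the highest mean level, was at 4255, 8995, 580.1 and 1408 CPM in null and 1026, 21.4, 687 and 849.6 in WT (log2 fold change 4.08, SE 1.93, adjusted p 0.442), which overlapped widely.

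Genes of dividing cells and of segmental signalling had negative medians. These lists are read beside all tested genes, of which 5750 of 11978 were negative and 0.634% were called. All but 2 of 35 mitosis and cell division genes were negative, with a median of -0.52 and 0 called, and 29 of 39 DNA replication and S phase genes were negative with a median of -0.35 and 0 called. *stg*, the Cdc25 phosphatase that starts mitosis, had 217, 381, 901 and 232 CPM in null and 985, 701, 682 and 834 in WT (log2 fold change -0.63, SE 0.25, adjusted p 0.341), with null replicate 3 inside the WT range. *Mcm5*, a subunit of the replicative helicase, had 7.18, 33.3, 39.3 and 20.8 CPM against 95.3, 103, 49.4 and 48.6 (log2 fold change -1.43, SE 0.40, adjusted p 0.133). *CycA* (log2 fold change -0.53, adjusted p 0.452), *E2f1* (log2 fold change 0.01, adjusted p 0.999) and *Dp* (log2 fold change -0.45, adjusted p 0.427), named for their high mean level, were not called. Of 25 segment polarity and signalling genes 22 were negative and 1, *inv*, was called. *inv*, the paralogue of *engrailed*, fell from 156, 116, 133 and 88.7 CPM in WT to 34.95, 39.2, 68.7 and 41.1 in null (log2 fold change -1.33, SE 0.24, adjusted p 0.00693), and its transgene libraries were at 99.9 to 154 CPM with a median of 127. The call of *inv* was lost with null and WT libraries alone and with the stage score as covariate, each with and without the factor, and held under the other 29 of 33 alternatives. *N* (log2 fold change -0.83, adjusted p 0.243), *fz2* (log2 fold change -0.38, adjusted p 0.41), *Atpalpha* (log2 fold change 0.72, adjusted p 0.0974) and *cora* (log2 fold change 0.24, adjusted p 0.757), named for their high mean level, were not called. *en* itself was at 26.8, 40.3, 130.3 and 38.8 CPM in null and 100.2, 115, 132 and 90.3 in WT (log2 fold change -0.74, SE 0.31, adjusted p 0.368), and *crok*, a Ly6 protein and the only call among 24 septate junction genes (median -0.22), had 22.5, 34.3, 46.7 and 42.5 CPM against 149, 108, 101 and 86.2 (log2 fold change -1.41, SE 0.26, adjusted p 0.00883).

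**Figure D4:**
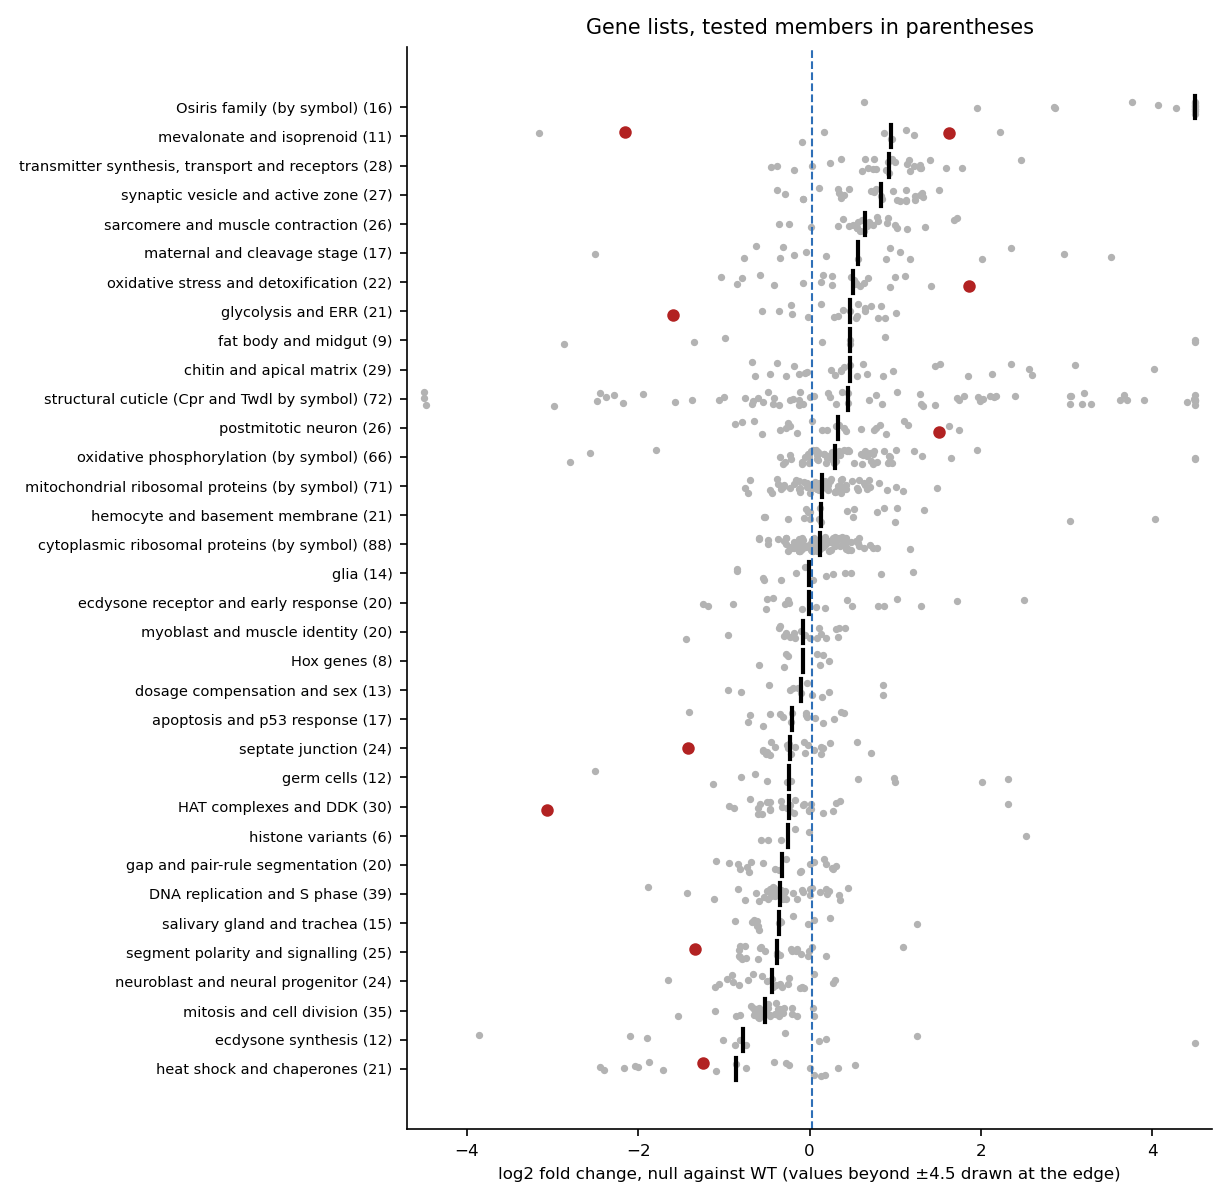
Each row is a gene list, with the number of tested members in parentheses, and each point is a member's fitted log2 fold change of null against WT. Red points were called, black ticks are list medians, the dashed line is the median of all tested genes, 0.03, and members beyond the axis limits are drawn at the edge, where the tick of the Osiris list also lies.

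Late genes of muscle and cuticle and early patterning genes also mark embryo stage, so a stage score was computed for each library. The stage score, the mean log2(CPM + 1) of 22 late genes minus that of 19 early genes, was 5.15, 3.73, 1.90 and 4.91 in null replicates 1 to 4 and -0.20, 2.05, 0.94 and 1.84 in WT. Of the null libraries, 3 were above every WT library, and null replicate 3 was within the WT range. In the transgene libraries the score was -1.68 to -0.39 in FL, -0.27 to 0.92 in FLWF24 and -1.69 to 2.67 in ΔN. A transgene level near WT and away from null can therefore go with stage as well as with the transgene, which was not tested. The difference was 2.77 (exact two-sided permutation p 0.0571 over 70 splits, n = 4 each, 0.171 after adjustment over 9 measures; the smallest p the design allows is 0.0286). The late markers alone were higher in 4 of 4 null libraries, 8.40 ± 0.737 against 6.41 ± 0.966 (exact two-sided permutation p 0.0286, adjusted 0.129), and the early markers were 4.47 ± 0.810 against 5.25 ± 0.144 (exact permutation p 0.143, adjusted 0.214). The factor of unwanted variation in the main fit ranked the libraries within each group in the same order as the score. The main fold changes may therefore already be adjusted in part for what the score measures, which was not tested. With the score added to the fit as a covariate, 26 genes were called, 23 of them among the 76, and 18 of the 36 named genes lost their call.

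The list medians were computed again with the score as covariate. The score shares members with some of these lists, such as *Act57B* and *up* with the sarcomere list and *stg* with the mitosis list. A smaller median in such a list was therefore partly fixed in advance. The median log2 fold change of the synaptic list went from 0.84 to 0.41, that of the transmitter list from 0.93 to 0.29 and that of the sarcomere list from 0.65 to 0.27. The cuticle list went from 0.45 to -0.05 and the Osiris list from 5.12 to 0.40. Both medians carry the limit of the filter given above, and the late genes of the score include genes of cuticle. On the negative side, the mitosis list went from -0.52 to 0.05, the DNA replication list from -0.35 to -0.02, the neuroblast list from -0.43 to 0.02 and the list of acetyltransferase complexes and DDK from -0.24 to 0.01. The median of the mevalonate list went from 0.95 to 0.55, that of the segment polarity list from -0.38 to -0.21 and that of the heat shock list from -0.86 to -0.92. These kept their sign in this fit, as did the medians of the synaptic, transmitter, sarcomere and Osiris lists. The called members of the mevalonate, segment polarity and heat shock lists, *Pmvk*, *Fpps*, *inv* and *Hsf*, lost their calls with the covariate, with and without the factor. With the covariate and no factor, the sarcomere median was -0.20, the cuticle median -0.61 and the synaptic median 0.27.

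**Figure D5:**
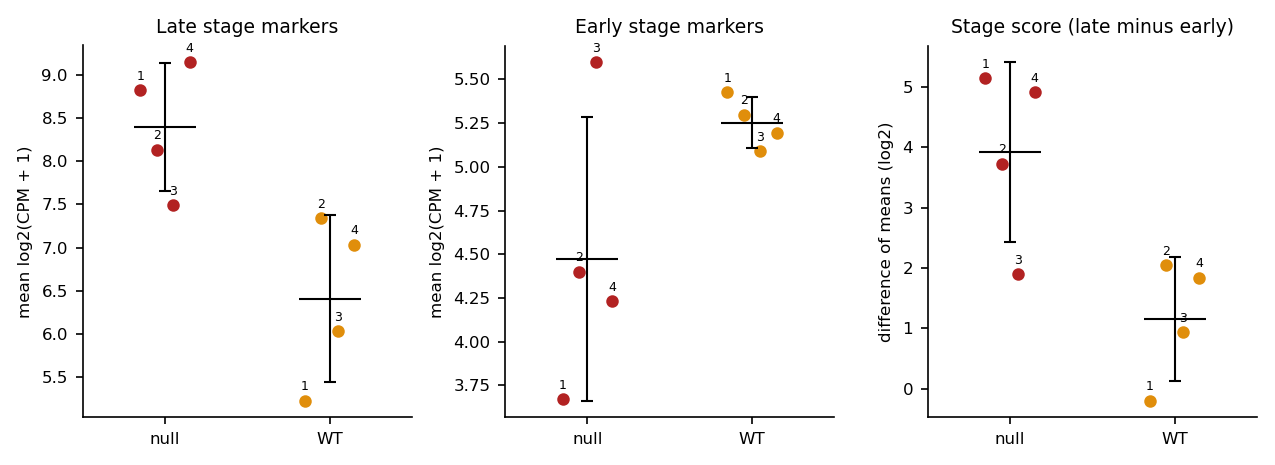
Mean log2(CPM + 1) of the late markers and of the early markers, and their difference as the stage score, in each null and WT library, numbered by replicate, with the mean and SD of 4 libraries. The 4 null libraries are above every WT library for the late markers, while null replicate 3 lies within the WT range for the stage score.

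In the mevalonate and isoprenoid list of 11, 1 gene was called higher and 1 lower, 8 had an unadjusted p under 0.05 and the median log2 fold change was 0.95, beside 0.634% called and 11.5% with a p under 0.05 over all tested genes. *Pmvk*, phosphomevalonate kinase, was at 37.2, 89.3, 38.01 and 34.5 CPM in null and 36.3, 13.95, 22.1 and 19.6 in WT (log2 fold change 1.63, SE 0.35, adjusted p 0.0256), with WT replicate 1 inside the null range, while *Fpps* fell as given above. *Pepck2*, a phosphoenolpyruvate carboxykinase of gluconeogenesis, fell from 168, 238, 272 and 188 CPM in WT to 54.98, 54.8, 117 and 70.9 in null (log2 fold change -1.60, SE 0.27, adjusted p 0.00316), and was called among 21 glycolysis genes that had a median of 0.48. Its transgene libraries were at 59.1 to 132 CPM with a median of 99.3, below every WT library. *qless* (log2 fold change 2.22, adjusted p 0.214), *Ald1* (log2 fold change 0.56, adjusted p 0.389), *Eno* (log2 fold change 0.65, adjusted p 0.31) and *cnc* (log2 fold change 0.27, adjusted p 0.694), named for their high mean level, were not called. *Prx6c* was the only call among 22 genes of oxidative stress and detoxification, which had a median of 0.50.

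Of the heat shock and chaperone genes 15 of 21 had negative fold changes, the median was -0.86 and 1 was called. Over all tested genes, 5750 of 11978 were negative and 0.634% were called. *Hsf*, the heat shock transcription factor, was called, at 116, 182, 162 and 163 CPM in null and 297, 301, 419 and 349 in WT (log2 fold change -1.24, SE 0.23, adjusted p 0.00818), and the groups did not overlap. *Hsp26* had 11.7, 9.86, 7.19 and 12.5 CPM against 18.99, 32.9, 29.9 and 27.6 (log2 fold change -1.88, SE 0.54, adjusted p 0.137), and *DnaJ-1* had 139, 141, 164 and 209.8 CPM in null and 191, 250.4, 382 and 246 in WT (log2 fold change -0.86, SE 0.22, adjusted p 0.0741). Neither passed the test. Cytoplasmic ribosomal protein genes, 88 tested, had 0 calls and a median of 0.13, and the 66 oxidative phosphorylation genes had 0 calls, 52 positive members and a median of 0.30. *Hsc70-4* (log2 fold change 0.18, adjusted p 0.79), *Hsc70-3* (log2 fold change 0.05, adjusted p 0.97), *RpL41* (log2 fold change 0.57, adjusted p 0.642), *ATPsynC* (log2 fold change 0.60, adjusted p 0.154) and *ATPsynbeta* (log2 fold change 0.36, adjusted p 0.472), named for their high mean level, were not called.

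Lists for other cell types and processes had 0 calls, beside 0.634% of all tested genes. In lists this short, 0 calls is near that share. The medians of their log2 fold changes were -0.0046 for 14 genes of glia, 0.13 for 21 of hemocytes and basement membrane, -0.36 for 15 of salivary gland and trachea, -0.24 for 12 of germ cells and 0.47 for 9 of fat body and midgut. They were -0.77 for 12 genes of ecdysone synthesis, -0.01 for 20 of the ecdysone response, -0.32 for 20 gap and pair-rule genes, -0.08 for 8 Hox genes, -0.21 for 17 of apoptosis, -0.10 for 13 of dosage compensation and sex and -0.25 for 6 histone variants.

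The reporters and library measures were compared in the same way. GFP was at 193 ± 62.4 CPM in null and 117 ± 15.6 in WT (exact two-sided permutation p 0.0857, n = 4 each, adjusted 0.193), and Gal4 at 271 ± 53.4 against 184 ± 54.8 (exact permutation p 0.114, adjusted 0.206). The number of genes with at least 1 count was higher in 4 of 4 null libraries (11327 ± 338 against 10541 ± 418, exact permutation p 0.0286, adjusted 0.129), including null replicate 1 with the fewest counts. Spike-in counts per 1000 gene counts were 12.7 ± 2.64 in null and 16.2 ± 11.5 in WT (exact permutation p 0.6, n = 4 each), and WT libraries spanned 5.71 to 30.3. The part of these measures in the results above was not tested.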

How the data were processed

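RNA-seq libraries were made from 25 ng of embryo RNA with the Ovation RNA-seq System V2 and depletion of fly rRNA. Per the study's methods and the submitters' processing notes, the authors used Trimmomatic for trimming, HISAT2 for alignment to BDGP6 (dm6) and HTSeq 0.11.1 at default settings for counting. The deposited values are raw counts, which were found to be whole numbers whose totals differ between libraries. The default counting reads strand, which the kit is not known to keep, so overlapping and antisense genes are uncertain. Of 17906 entries, 17807 were genes, and 138 rRNA genes, 92 spike-ins, 2 reporters and the 5 summary lines were kept out of library sizes and tests. In the summary lines, reads aligned to more than 1 place were 45.0% to 79.9% of all reads in null and 62.9% to 71.7% in WT.

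The header of the table is shifted by 1 cell, and names were taken in their order. FL libraries carry other numbers in the table than in the labels and were matched as a group. Names and positions came from a later Ensembl annotation of BDGP6, which held 17710 of the gene identifiers. No sequences are printed.

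All 19 libraries entered 1 fit in edgeR 4.0.16 (R 4.3.3) after filterByExpr, with TMM scaling, genotype as factor, robust quasi-likelihood dispersions and 1 factor of unwanted variation estimated from replicate differences (RUVs, written out here). The study does not state the number of factors. Fold changes are null against WT, and the threshold of 0.5 of the study was read as log2. The labels give no batch. Single values were compared by exact permutation over the 70 splits of 4 and 4. Genes with 3 counts or fewer in every library of a group were taken to be at the floor: against a group at 0 throughout, a fold is a lower bound computed with 3 counts per library, and against a group with 1 to 3 counts in total a ratio with its counting interval is given. Both cover counting error only, since the reads carry no molecular identifiers.

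Named genes were *chif*, the 15 called genes of largest absolute log2 fold change in each direction with no overlap and at least 5 CPM in the higher group, called members of the gene lists, called genes at the floor and, where a list is described, its members with the highest mean CPM. List members beyond these (*Gcn5*, *Nipped-A*, *Rab3*, *cpx*, *mira*, *Mcm5*, *en*, *Hsp26* and *DnaJ-1*) were chosen after their values were seen. The members and lists were chosen with earlier results of these data known. Replicate numbers were not used to pair null with WT libraries. The correlations of the deviations of same-numbered libraries from their group means were -0.36, -0.26, -0.05 and 0.11. So few values cannot exclude a batch shared by number. Alternatives were other scalings, filters, factors, covariates and tools (DESeq2 1.42.0), counts thinned to equal depth, and leaving out each library. The fit was also run on simulated counts with known changes, which held no stage difference and no factor of unwanted variation. That run therefore cannot show how the fit handles either of them.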

Additional observations from a re-analysis of the deposited data

Results flagged for a closer look

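Among 90 groups of 4 libraries (named genes and library measures in null and in WT), 8 held a library whose gap to the nearest other exceeded Dixon's critical value, where chance flags about 5% of groups. Null replicate 3 stood apart at 12.3 CPM in *CG8607*, against 1.99 to 2.84 in the other null libraries, and at 31.7 CPM in *CG5078*, against 2.68 to 7.56. *Pmvk* was at 89.3 CPM in null replicate 2 and at 34.5 to 38.01 in the others. *lncRNA:CR45593* had 0.474 CPM in null replicate 4 and 0 in the others.

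In WT, replicate 3 had 498 CPM of *CG5171* (others 388 to 395) and 0.0806 CPM of *CG5078*, which is 1 count beside 0 in the others. WT replicate 1 had 172 CPM of *CG7763* (others 132 to 136) and 369 CPM of *His2B:CG33868* (others 193 to 220). All of these genes are called in the same direction as stated in the report, and the fold of *CG8607* and *CG5078* is given there with and without null replicate 3.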

How the results depend on the processing

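All 76 called genes kept their sign under every alternative, and the call of *chif* held in all 33. The total of 76 calls became 176 without the RUV factor (68 of the 76 among them), 341 with DESeq2, 25 with null and WT libraries alone, 26 with the stage score as covariate and 22 with that covariate and no RUV factor. Calls higher in null, 28, became 102 without the factor, 45 with 2 factors, 192 with DESeq2, 10 with null and WT alone, 10 with ERCC scaling, 10 with the stage covariate and 9 with it and no factor. Calls lower in null, 48, became 74, 149, 15, 16 and 13 under no factor, DESeq2, null and WT alone, and the stage covariate with and without the factor, 26 with null and WT alone and no factor, and 75 with upper-quartile scaling. The share of calls higher in null was 36.8%, against 58.0% without the factor, 59.4% with null and WT alone and no factor, 56.3% with DESeq2, 23.5% with upper-quartile scaling, 26.7% with thinned counts and 16.95% with ERCC scaling, which shifts the median log2 fold change of all genes to -0.26. The cause was not tested.

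Leaving out 1 library at a time gave 37 to 277 calls, 10 to 95 higher and 27 to 182 lower. Totals moved by over 1.5 times without null replicate 3 (277), null replicate 2 (42), ΔN replicate 4 (122), WT replicate 2 (47) and WT replicate 3 (37). Of the 36 named genes, 21 were called in all 19 such fits. The others were *Appl*, *CG31522*, *CG31808*, *CG3777*, *CG5191*, *CG8607*, *CG9436*, *emp*, *na*, *Pmvk*, *sordd2*, *toy*, *hpRNA:CR46342*, *inaD* and *snRNA:U12*, and most calls were lost without WT replicate 2 or 3 (14 each) or null replicate 2 (12). With the replicate block, 83 genes were called (32 higher, 51 lower), 63 of them among the 76, but the labels do not say whether equal numbers share a batch. The stage score difference, 2.77, was 3.20 without the muscle genes of the late list (exact permutation p 0.0286, n = 4 each) and 2.31 to 3.44 over the fits without 1 library. Of 1188 list medians under the alternatives, 1138 stayed within the spread between replicates and 50 moved further. The lowest depth among null and WT libraries, 6282271 counts in null replicate 1, limits genes near the floor.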

Other observations

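The genes in these paragraphs were chosen after their values were seen. Of 24 V-ATPase subunit genes tested by symbol, whose products acidify organelles, 2 were called, *Vha26* and *Vha55*, 20 were positive, 11 had an unadjusted p under 0.05 and the median log2 fold change was 0.54. Over all tested genes, 0.634% were called, 11.5% had a p under 0.05 and 6228 of 11978 were positive. *Vha26* had 1988, 854, 542 and 1197 CPM in null and 263, 419, 291 and 363 in WT (log2 fold change 1.13, SE 0.20, adjusted p 0.00578), with no overlap, and *Vha55* had 1765, 694, 432 and 1062 against 198, 451, 235 and 241 (log2 fold change 1.05, SE 0.25, adjusted p 0.0486), with null replicate 3 inside the WT range. The transgene libraries of *Vha26* were at 203 to 596 CPM with a median of 289.6.

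Several called lower genes had transgene levels at or above WT. *NimC4*, a receptor by which glia and macrophages engulf dying cells, had 48.2, 95.9, 149.8 and 70.6 CPM in null and 418, 242, 248 and 236 in WT (log2 fold change -1.34, SE 0.24, adjusted p 0.00578), and the transgene libraries were at 191 to 349.8 CPM with a median of 294. *Ama*, a secreted immunoglobulin-domain protein of the nervous system, had 62.7, 150.1, 287 and 144 CPM against 639.7, 338, 457 and 436 (log2 fold change -1.24, SE 0.26, adjusted p 0.0194), with the transgene libraries at 417 to 869 CPM with a median of 597. *E(spl)mbeta-HLH*, a Notch target repressor, had 18.7, 17.8, 28.4 and 22.3 CPM against 47.1, 35.4, 71.8 and 62.1 (log2 fold change -1.49, SE 0.31, adjusted p 0.0201), and *fzr*, the APC/C activator that ends mitotic cycles, had 92.6, 189, 246 and 116 against 356, 381, 289 and 323 (log2 fold change -0.90, SE 0.20, adjusted p 0.0384). *HP1b*, a heterochromatin protein, was at 34.01, 47.9, 72.4 and 36.1 CPM in null and 120.1, 89.4, 122 and 94.8 in WT (log2 fold change -1.01, SE 0.24, adjusted p 0.0487). Every null library was below every WT library in these genes.

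Further called lower genes, also chosen after their values were seen, are given by their values. *Haspin*, a kinase of histone H3 in mitosis, had 24.2, 24.1, 23.4 and 34.6 CPM in null and 86.8, 91.6, 80.2 and 82.6 in WT (log2 fold change -1.80, SE 0.23, adjusted p 2.6e-04), and *Pdcd4*, a repressor of translation initiation, had 382, 362, 295 and 311 against 704, 749, 1147 and 848 (log2 fold change -1.67, SE 0.24, adjusted p 6.4e-04). The transgene libraries of *Haspin* were at 47.2 to 73.5 CPM with a median of 59.6, which lies between the ranges of null and WT. *Ero1L*, which forms disulfide bonds in the endoplasmic reticulum, had 27.6, 48.6, 41.9 and 35.7 CPM against 80.8, 111, 78.3 and 92.1 (log2 fold change -1.26, SE 0.27, adjusted p 0.0257), and *PH4alphaEFB*, a collagen prolyl hydroxylase, had 83.5, 141, 156 and 126 against 211, 247, 340.3 and 256 (log2 fold change -1.08, SE 0.22, adjusted p 0.0188). The transgene libraries of *PH4alphaEFB* were at 116 to 192 CPM with a median of 155, below every WT library. Those of *Ero1L* were at 36.2 to 78.3 CPM with a median of 56.5. The log2 fold change of null against FL was -0.20 for *PH4alphaEFB* (adjusted p 0.869) and -0.34 for *Ero1L* (adjusted p 0.796).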
